A study of Mus musculus with 15 samples.

Results

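The Ifi200 genes are a cluster of interferon-inducible genes on mouse chromosome 1, and 8 of them are described here in the liver of Stab1-/- and wildtype mice: Ifi202b, Ifi203, Ifi204, Ifi205, Mnda, Mndal, Aim2 and Pyhin1. They are 8 of the 19464 rows of the deposited table, each found on 1 row by its symbol. The family was selected on Ifi202b, whose reads were counted in Stab1-/- livers and in no wildtype liver, so the genotype difference of Ifi202b is given as a description with no test. The other 7 genes, called the neighbours, entered as members of the same family and cluster.

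Stab1 encodes Clever-1, a scavenger receptor of macrophages and of lymphatic and sinusoidal endothelial cells, and the comparison of genotypes asks what differs in liver RNA without it. The 15 libraries were made from total RNA of whole liver. At 2 weeks of age there were 4 libraries of Stab1 knock-out (Stab1-/-) and 4 of wildtype mice. At E17.5, shortly before birth, there were 3 of Stab1-/- and 4 of wildtype fetuses. All groups carried the same labelled strain background, C57BL/6N;129SvJ, and had received no treatment. The knock-out is constitutive and removes Clever-1 from all cells. The share of each parental strain in any one library and the relation of the wildtype mice to the Stab1-/- mice were not given in the sources used here. In bulk RNA, fewer cells of a type and less RNA per cell cannot be told apart.

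Between 9659 and 10964 kilo-reads were counted on genes per library. As a check of the labels, the 2-week-old Stab1-/- libraries held 68 to 119 reads on Stab1 against 579 to 941 in wildtype, and the E17.5 ones 301 to 443 against 1244 to 1868. The liver parenchyma markers Alb, Ttr, Apoa1, Serpina1a and Fgb summed to 49804 RPKM (reads per kb of gene length, scaled to the library total) or more in every library. A high sum of these markers cannot show whether other tissue was present as well. The study's own list of genes higher in E17.5 Stab1-/- liver includes Alpi and Fabp2, which it describes as intestinal. Whether other tissue contributed to the E17.5 libraries was not tested.

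Proteins of the Ifi200 family carry a HIN domain that binds DNA and, in most members, a pyrin domain that binds other pyrin proteins. Aim2 senses DNA in the cytosol and assembles an inflammasome through the adaptor ASC (Pycard), whereas p202, the product of Ifi202b, has HIN domains but no pyrin domain and is known as an inhibitor of Aim2. Most of the genes are induced by interferons, are best known from macrophages and other leukocytes, and lie side by side, some with shared sequence. The level of Ifi202b is also known to differ widely between inbred mouse strains.

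The following promoter stretches are shown because the core of the interferon-stimulated response element lies in those of 5 neighbours. That core was not found in the promoter of Ifi202b, which holds a match to the gamma-activated site, or of the neighbour Aim2. RefSeq (GRCm38.p6) gives windows of 300 bases around the start site for 7 of the 8 genes, all but Ifi204. The windows were searched on both strands for AAANNGAAA, the core of the interferon-stimulated response element, and for TTCNNNGAA, the gamma-activated site, and each stretch below holds 59 bases with the match in capitals.
Ifi203, chr1:173942493-173942551, minus strand: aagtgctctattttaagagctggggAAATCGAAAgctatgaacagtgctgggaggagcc
Mndal, chr1:173880189-173880247, minus strand: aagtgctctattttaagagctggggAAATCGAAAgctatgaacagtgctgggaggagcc
Mnda, chr1:173913049-173913107, minus strand: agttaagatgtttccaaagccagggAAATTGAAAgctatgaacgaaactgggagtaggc
Ifi205, chr1:174031855-174031913, minus strand: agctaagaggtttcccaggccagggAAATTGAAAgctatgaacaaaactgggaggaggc
Pyhin1, chr1:173630756-173630814, plus strand: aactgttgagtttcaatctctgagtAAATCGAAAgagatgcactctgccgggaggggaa
Ifi202b, chr1:173982959-173983017, minus strand: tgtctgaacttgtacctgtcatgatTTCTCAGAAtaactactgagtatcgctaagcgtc

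The stretches of Ifi203 and Mndal were identical in all 59 bases. Those of Mnda and Ifi205 shared 53 of 59 bases, and either shared 39 or 40 with those of Ifi203 and Mndal. The stretch of Pyhin1 shared 39 bases with those of Ifi203 and Mndal, 32 with that of Ifi205 and 31 with that of Mnda. The AAANNGAAA match began 34, 35, 36, 133 and 78 bases before the start site in Ifi203, Mndal, Mnda, Ifi205 and Pyhin1, and for Ifi203 it lay in 1 of the 2 listed windows. Ifi205 and the second listed window of Mndal held 1 further match each on the other strand. No AAANNGAAA was found in the windows of Ifi202b or Aim2. The capitals in Ifi202b mark a TTCNNNGAA match, which began 148 bases before the start site and was the only one in the listed windows of the 8 genes. Of all 32851 RefSeq windows of this length, 10.6% held AAANNGAAA and 8.3% held TTCNNNGAA. These letters are those of the reference genome and describe the windows, not binding, and the sequences of the mice themselves were not read here.

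Ifi203 and Ifi204 were among the 3 highest genes of the family in wildtype liver at both stages, with Mndal at 2 weeks and Aim2 at E17.5. At 2 weeks the mean wildtype levels were 6.54 ± 0.52 RPKM (SD, n = 4) for Ifi203, 5.83 ± 1.08 for Mndal and 5.24 ± 1.53 for Ifi204, whose ranges over libraries overlapped. Aim2 followed at 2.75 ± 0.45 RPKM, Pyhin1 at 1.69 ± 0.74, Ifi205 at 0.63 ± 0.34 and Mnda at 0.39 ± 0.12, and of these neighbours in the order only Aim2 and Pyhin1 had ranges that did not overlap. At E17.5 the wildtype order was Ifi204, Ifi203, Aim2, Mndal, Pyhin1, Mnda and Ifi205, from 5.78 ± 1.23 to 0.90 ± 0.31 RPKM (n = 4), with a gap between ranges at Pyhin1 and Mnda alone. In Stab1-/- liver, Ifi202b was the fourth gene of the family at 2 weeks and the second at E17.5, and its range overlapped that of the genes directly above it. The plot of the levels by library shows all 8 genes.

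**Figure D1:**
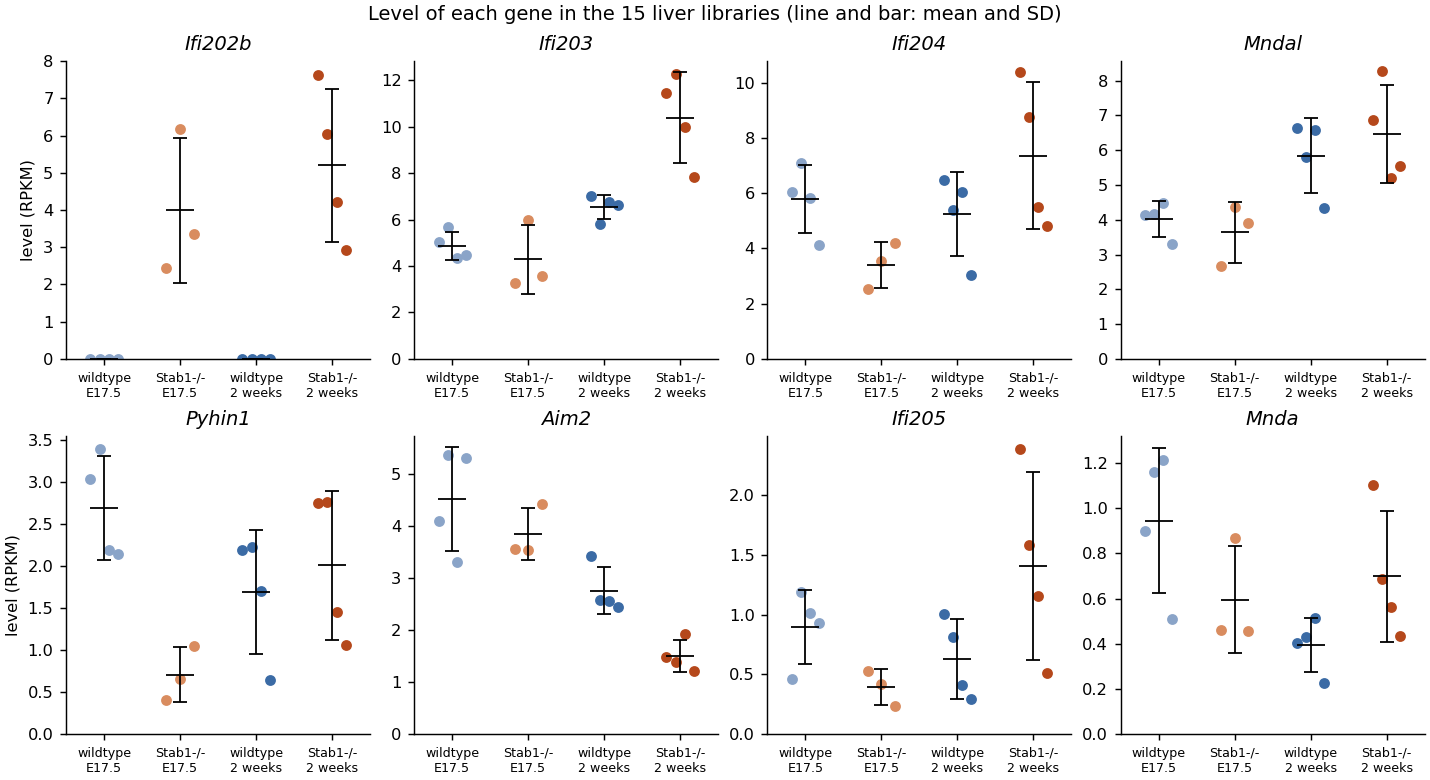
Level of each Ifi200 gene in RPKM (vertical axis, from 0) in the wildtype and Stab1-/- livers at E17.5 and 2 weeks, with 1 point per library and the mean and SD of each group as a line and bar. Ifi202b sits at 0 in the 8 wildtype libraries and between 2.43 and 7.62 RPKM in the 7 Stab1-/- libraries, while for the other genes most ranges of the genotypes overlap.

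Ifi202b (gene ID 26388) was read in every Stab1-/- liver and in no wildtype liver. At 2 weeks, 135, 115, 73 and 51 reads were counted on it in the Stab1-/- libraries, and 0 in each of the 4 wildtype libraries. At E17.5 the Stab1-/- libraries held 46, 116 and 64 reads and the 4 wildtype libraries again 0. The genotypes therefore did not overlap at either stage, as the choice of the gene fixed.

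The mean level of Ifi202b in Stab1-/- liver was 5.20 ± 2.06 RPKM (SD, n = 4) at 2 weeks and 3.99 ± 1.95 RPKM (n = 3) at E17.5. With 0 reads, a wildtype library allows a level of up to 3 reads, or 0.168 RPKM at most at 2 weeks and 0.160 at E17.5, a limit that covers counting error only. Against that limit the 2-week Stab1-/- mean was at least 30.9-fold higher, and the fetal one at least 24.96-fold higher. Ifi202b made up 12.0% to 17.3% of the summed RPKM of the 8 genes in 2-week-old Stab1-/- livers and 15.4% to 24.2% in E17.5 ones. The 7 neighbours alone summed to 29.8 ± 7.45 RPKM in Stab1-/- and 23.1 ± 4.02 in wildtype at 2 weeks (n = 4 each), and to 16.9 ± 3.10 (n = 3) and 23.7 ± 3.10 (n = 4) at E17.5, with overlapping ranges at 2 weeks and none at E17.5.

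Reads lay along most of Ifi202b in each Stab1-/- library, as the deposited Coverage shows, which is the share of a gene model that reads overlie. In the 2-week-old Stab1-/- libraries 85.3%, 80.2%, 75.0% and 61.8% of Ifi202b was covered, and in the E17.5 ones 64.0%, 81.9% and 79.8%. These libraries gave Ifi202b 25.6 to 75.2 reads per kb, and genes of like read density in the same libraries had a median coverage of 65.3% to 89.8%. Ifi202b was under that median in 6 of its 7 libraries. The wildtype coverage was 0% in all 8 libraries. Coverage of Ifi204, at 56.2% to 75.6%, and of Mndal, at 61.7% to 80.3%, was under the median of like genes in 15 of 15 libraries each. Mnda, with 11.9% to 26.5%, was under it in 14 of 15, Aim2 in 13, Ifi205 in 11, and Ifi203 and Pyhin1 in 6 each.

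Stretches shared with another gene matter for these values. A read that matches both equally well has more than 1 mapped place and is not counted. Of the 50-base windows of each gene's longest protein-coding GENCODE transcript, 0% were found in another gene for Ifi202b and 0.93% for Aim2. The share was 10.9% for Ifi203, 27.2% for Mndal, 30.2% for Ifi204, 35.1% for Pyhin1, 49.6% for Ifi205 and 72.9% for Mnda, whose values are uncertain for that reason.

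**Figure D2:**
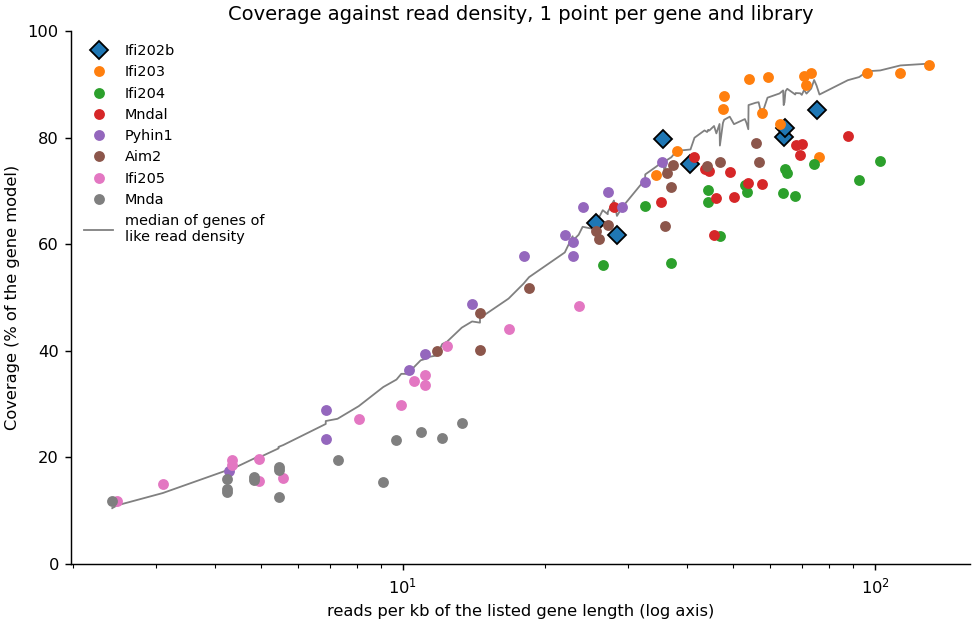
Coverage in percent of the gene model (vertical axis) against reads per kb of gene length (horizontal log axis), with 1 point per gene and library that held reads and a grey line for the median of genes of like read density. The diamonds of Ifi202b (61.8% to 85.3%) lie near the median, 6 of 7 under it. All points of Ifi204 and Mndal and 14 of 15 of Mnda also lie under it.

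At 2 weeks, Ifi203 rose and Aim2 fell in Stab1-/- liver, and no other neighbour passed the test. The threshold was an adjusted p under 0.05 in edgeR's quasi-likelihood test with Benjamini-Hochberg adjustment over all genes tested, which called 0.936% of the 12716 genes higher and 1.74% lower in this comparison. Of the 7 neighbours 6 could be tested, Mnda having too few reads.

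Ifi203 (gene ID 15950), which encodes the nuclear protein p203, had 411, 472, 350 and 277 reads in 2-week-old Stab1-/- livers and 266, 209, 260 and 257 in wildtype. Its level was 10.4 ± 1.96 against 6.54 ± 0.52 RPKM (SD, n = 4 each), and each Stab1-/- library lay above each wildtype library. Its log2 fold change was 0.57 ± 0.13 (SE; edgeR adjusted p = 0.0432). With an offset for GC content the estimate was 0.14 (adjusted p = 0.672), and Ifi203, with 38.8% GC, lay in the lowest 1.61% of the tested genes for GC, over which the 2-week genotype difference fell with GC (Spearman's rho -0.34 across 12405 genes, a description). The call was also lost without any one of 7 of the 8 libraries, Stab1-/- replicate 4 being the exception, with adjusted p up to 0.124 and the log2 fold change between 0.48 and 0.66.

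Aim2 (gene ID 383619), the DNA sensor of the inflammasome that p202 inhibits, had 37, 37, 47 and 30 reads in 2-week-old Stab1-/- livers and 91, 65, 69 and 66 in wildtype. All Stab1-/- libraries were under all wildtype libraries, at 1.495 ± 0.30 against 2.75 ± 0.45 RPKM (n = 4 each). Aim2 fell by 0.97 on the log2 scale (SE 0.18, edgeR adjusted p = 0.0157), that is 1.96-fold. Its coverage moved likewise, with 39.9% to 51.7% in Stab1-/- and 60.9% to 63.6% in wildtype. With the GC offset it fell by 1.14 (adjusted p = 0.00503), while the adjusted p was 0.0604 without Stab1-/- replicate 1 and 0.0571 without Stab1-/- replicate 2.

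At E17.5, Pyhin1 fell in Stab1-/- liver and no other neighbour passed the test, which called 0.194% of 13388 genes higher and 0.172% lower. Pyhin1 (gene ID 236312, named Ifi209 in RefSeq) encodes a protein with a pyrin and a HIN domain. It had 15, 24 and 39 reads in the Stab1-/- fetuses and 114, 124, 84 and 80 in wildtype, so the lowest wildtype library held about as many reads as the Stab1-/- libraries did together.

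The level of Pyhin1 was 0.705 ± 0.325 (n = 3) against 2.69 ± 0.62 RPKM (n = 4), a log2 fold change of -1.86 (SE 0.31, edgeR adjusted p = 0.0421) or 3.64-fold lower. Its coverage was 17.4% to 39.5% in Stab1-/- and 60.4% to 75.5% in wildtype. The call was kept without Stab1-/- replicate 3 and lost without any other single library, with adjusted p up to 0.136 and the log2 fold change between -2.26 and -1.57. At 2 weeks Pyhin1 had 95, 102, 49 and 36 reads in Stab1-/- and 80, 77, 63 and 24 in wildtype, which overlapped (log2 fold change 0.17 ± 0.35, adjusted p = 0.806).

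The remaining neighbours did not pass the test of genotype at either stage. Ifi204 (gene ID 15951), a sensor of DNA that signals through STING, had 236, 213, 122 and 108 reads in Stab1-/- and 156, 123, 148 and 75 in wildtype at 2 weeks. At E17.5 it had 61, 85 and 102 against 150, 171, 147 and 102 reads. The estimates were 0.40 ± 0.25 (adjusted p = 0.356) at 2 weeks and -0.70 ± 0.22 (adjusted p = 0.248) at E17.5, so they had opposite signs and the ranges overlapped at both stages.

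Ifi205 (gene ID 226695), known from macrophages and blood cell differentiation, was counted with few reads. It had 38, 27, 18 and 8 in Stab1-/- against 17, 13, 7 and 5 in wildtype at 2 weeks, and 9, 7 and 4 against 8, 20, 18 and 16 at E17.5. Its estimates were 1.07 ± 0.44 (adjusted p = 0.172) and -1.12 ± 0.41 (adjusted p = 0.314), again of opposite sign with overlapping ranges.

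Mndal (gene ID 100040462), named for its likeness to the myeloid nuclear differentiation antigen, was close to 0 in both comparisons, apart from an estimate of -0.30 at 2 weeks with the GC offset. At 2 weeks it had 131, 169, 97 and 104 reads in Stab1-/- and 134, 111, 135 and 89 in wildtype, and at E17.5 54, 88 and 80 against 86, 84, 95 and 68. The log2 fold changes were 0.06 ± 0.17 (adjusted p = 0.860) and -0.08 ± 0.20 (adjusted p = 0.891).

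Mnda (gene ID 381308, named Ifi211 in RefSeq) had 18, 12, 9 and 7 reads in Stab1-/- and 7, 7, 9 and 4 in wildtype at 2 weeks, and 8, 15 and 8 against 16, 20, 22 and 9 at E17.5. Its log2 fold change at E17.5 was -0.60 ± 0.40 (adjusted p = 0.544). The fetal libraries gave Ifi203 125, 228 and 138 reads in Stab1-/- against 196, 215, 173 and 174 in wildtype (log2 fold change -0.12 ± 0.21, adjusted p = 0.837) and Aim2 95, 94 and 119 against 112, 142, 92 and 144 (-0.17 ± 0.18, adjusted p = 0.703). Both overlapped between genotypes at E17.5.

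**Figure D3:**
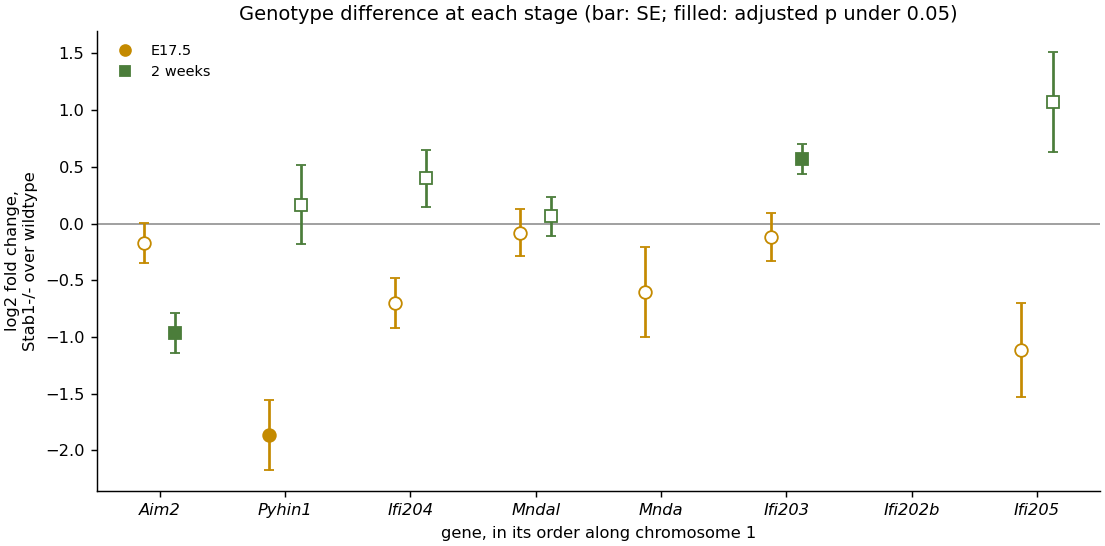
Log2 fold change of Stab1-/- over wildtype (vertical axis) for the 7 neighbours at E17.5 (circles) and 2 weeks (squares), in the order of the genes along chromosome 1, with SE bars and filled symbols for an adjusted p under 0.05. All 7 estimates lie under 0 at E17.5 and 5 of 6 above 0 at 2 weeks, with Aim2 the exception. Ifi202b is left empty as its difference chose the family, and Mnda was not tested at 2 weeks.

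The direction of the neighbours differed between the stages, as the plot of the genotype differences shows. At 2 weeks 5 of the 6 estimates were above 0, with a median of 0.28, where all tested genes had a median of -0.01. At E17.5 0 of 7 were above 0, with a median of -0.60 against 0.00. Ifi205 entered that E17.5 count through its wildtype reads alone. With the GC offset 3 of 6 were above 0 at 2 weeks, Mndal and Pyhin1 having turned, and 2 of 7 at E17.5, Ifi203 and Mndal having turned. Libraries with ranges apart were counted in the RPKM values as well. At 2 weeks Ifi203 was higher and Aim2 lower in all Stab1-/- libraries, where 10.4% and 4.5% of the tested genes were, and at E17.5 0 neighbours were higher and only Pyhin1 was lower, where 2.91% and 9.3% were.

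The difference of the genotype effect between stages was itself tested, as the interaction of genotype and stage over all 15 libraries. No neighbour passed it at an adjusted p under 0.05, where 1.81% of 13885 genes did. At an unadjusted p under 0.05 it took in 6 of the 7 neighbours, all but Mndal, where 23.2% of the genes did, and DESeq2 called 1 neighbour, Pyhin1, with an adjusted p of 0.00855.

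The interaction was -2.06 ± 0.55 on the log2 scale for Pyhin1 (E17.5 minus 2 weeks, edgeR adjusted p = 0.0605), -2.21 ± 0.68 for Ifi205 (adjusted p = 0.0814) and -1.13 ± 0.38 for Ifi204 (adjusted p = 0.104). Aim2 alone had an estimate above 0, at 0.77 ± 0.25 (adjusted p = 0.0973), save that Mndal was also above 0 with the GC offset. With the GC offset Aim2 passed, at 1.03 with an adjusted p of 0.0322, while Ifi203 moved from -0.72 to -0.04 and Ifi204 to -0.56.

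The stages were also compared within each genotype, a difference that was not used to choose the genes. In wildtype liver Ifi203 and Mndal rose from E17.5 to 2 weeks, 2 of the 6 neighbours tested, where 34.9% of 13369 genes were called higher and 37.0% lower. Ifi203 rose by 0.79 ± 0.11 and Mndal by 0.89 ± 0.16 on the log2 scale (edgeR adjusted p = 5.32e-05 and 0.000273). The estimates of Ifi204, Ifi205, Aim2 and Pyhin1 were 0.22 ± 0.21, -0.16 ± 0.38, -0.35 ± 0.17 and -0.32 ± 0.29, with adjusted p of 0.381, 0.724, 0.0815 and 0.336.

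In Stab1-/- liver 5 of the 7 neighbours rose with age and Aim2 fell, where 35.7% of 13433 genes were called higher and 36.8% lower. Ifi205 rose by 2.04 ± 0.49, Pyhin1 by 1.71 ± 0.40, Ifi203 by 1.49 ± 0.23, Ifi204 by 1.32 ± 0.27 and Mndal by 1.04 ± 0.23 (adjusted p between 0.000122 and 0.00328). Ifi205 met the filter on reads through its 2-week libraries alone (38, 27 and 18 reads, against 9, 7 and 4 at E17.5). Its entry hung on that difference, so its call is a description. Aim2 fell by 1.14 ± 0.19, a factor of 2.21 (adjusted p = 0.000219). Ifi202b itself had a log2 difference of 0.58 ± 0.36 between 2 weeks and E17.5 (adjusted p = 0.165), and its reads at the stages overlapped. Without Stab1-/- E17.5 replicate 2, the fetus with most Ifi202b reads, it was 1.09 with an adjusted p of 0.0176. Mnda had 0.44 ± 0.40 (adjusted p = 0.348).

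**Figure D4:**
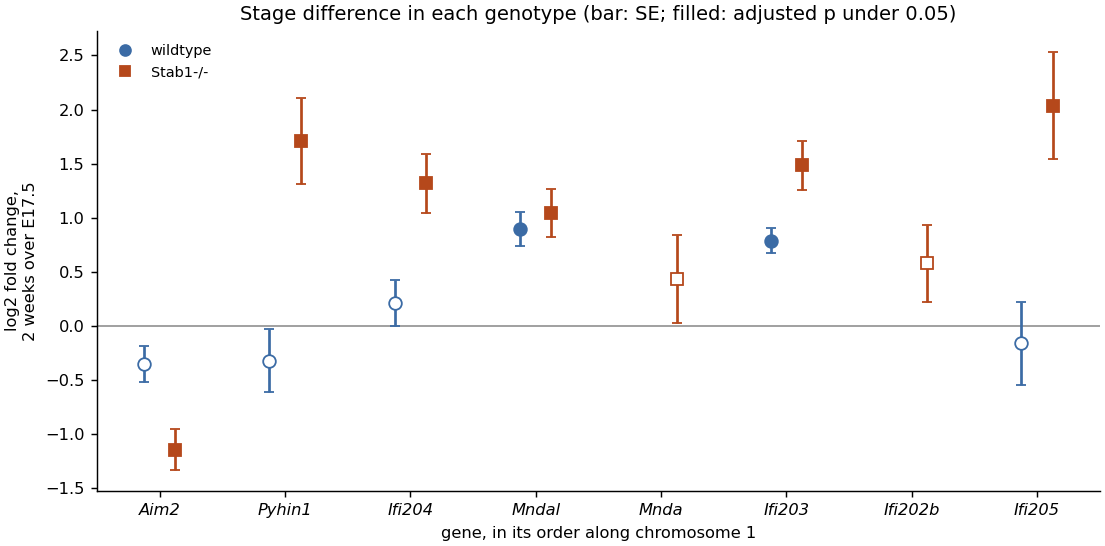
Log2 fold change of 2 weeks over E17.5 (vertical axis) in wildtype (circles) and Stab1-/- liver (squares) for each gene in its order along chromosome 1, with SE bars and filled symbols for an adjusted p under 0.05. Ifi203 and Mndal are filled in both genotypes, while Ifi204, Ifi205, Pyhin1 and Aim2 are filled in Stab1-/- alone, and Ifi202b and Mnda were tested in Stab1-/- alone. The difference between genotypes in these stage effects is the interaction, which passed for no gene shown.

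Some libraries were the lowest or highest of their group in several of the genes. Stab1-/- replicate 4 was the lowest of its group in 7 of the 8 genes at 2 weeks and wildtype replicate 4 the lowest of its group in 6 of 7 genes with reads. At E17.5 Stab1-/- replicate 1 was lowest in 5 of 8 and wildtype replicate 2 highest in 5 of 7. How often these libraries were the extreme over all tested genes was not counted, so this is a description.

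Of 16 further Ifi200 symbols listed for the cluster, 4 were in the table: AI607873, Pydc3, Pydc4 and BC094916. None was called in the genotype comparisons by edgeR, DESeq2 or limma, where the filter left 2 to test at 2 weeks and 1 at E17.5. Of those, only AI607873 at E17.5 had an unadjusted p under 0.05. In edgeR without the filter 4 were tested at each stage, 0 were called and 1 at each stage had an unadjusted p under 0.05. AI607873 had 59 to 111 reads in Stab1-/- and 85 to 95 in wildtype at 2 weeks, and their log2 fold change was 0.00 ± 0.16 (adjusted p = 0.991). At E17.5 its 83 to 112 reads in Stab1-/- lay under the 123 to 134 in wildtype, with -0.37 ± 0.13 (adjusted p = 0.304). Pydc3 had 6 to 7 reads in E17.5 Stab1-/- against 8 to 14 in wildtype. BC094916 had 0 to 6 reads in 2-week-old Stab1-/- livers and 0 in all 4 wildtype ones, and 0 to 3 in the fetuses of either genotype.

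For the lists that follow, the share of all tested genes with an unadjusted p under 0.05 in edgeR was 23.4% at 2 weeks and 12.9% at E17.5. Of the DNA sensing list (cGAS, STING, Tbk1, Irf3, Zbp1 and others) 0 of 12 tested genes passed at 2 weeks and 0 of 12 at E17.5, with median log2 fold changes of -0.03 and 0.06. At an unadjusted p under 0.05 there were 1 and 4 of the 12, and DESeq2 and limma called 0 as well, while edgeR with the GC offset called 1 lower at 2 weeks. Of the inflammasome list (Pycard, Casp1, Il1b, Il18, Gsdmd and others) 0 of 10 passed at 2 weeks and 0 of 11 at E17.5, with medians of 0.08 and 0.00, with 1 at each stage under an unadjusted p of 0.05 and 0 by DESeq2 and limma. The interferon signalling list, with the receptors, Jak1, Tyk2 and the Stat and Irf factors, had 0 of 13 and 0 of 14 called, with medians of 0.01 and 0.09, and 3 and 0 under an unadjusted p of 0.05. At 2 weeks DESeq2, edgeR without the filter and edgeR with the GC offset each called 1 of them higher.

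Interferon-induced genes outside the cluster leaned upwards at 2 weeks. All 22 on the list had estimates above 0 (21 with the GC offset), with a median of 0.41 where that of all genes tested was -0.01. Of the 22, 2 were called higher, where 0.936% of all genes tested were, 3 by DESeq2 and 1 by limma, and 9 had an unadjusted p under 0.05. Ifi44 rose by 1.47 ± 0.34 on the log2 scale (edgeR adjusted p = 0.0455), from 1.25 ± 0.13 to 3.69 ± 2.03 RPKM. Ifit1, which binds foreign RNA, rose by 1.004 ± 0.191 (adjusted p = 0.0194), from 1.63 ± 0.45 to 3.48 ± 0.58 RPKM (n = 4 each). At E17.5, 10 of 22 were above 0 with a median of -0.08, and 0 were called by edgeR, DESeq2 or limma, with 0 in edgeR at an unadjusted p under 0.05.

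Markers of other cells moved with genotype in part, and their part in the results above was not tested. The 7 granulocyte markers, none at 0 throughout, summed to 188 to 421 RPKM in 2-week-old Stab1-/- and 31.2 to 146 in wildtype livers, with all 6 tested above 0 and a median log2 fold change of 0.999. At E17.5 they summed to 3646 to 3950 RPKM in Stab1-/- and 5159 to 8344 in wildtype, with 0 of 7 above 0 and a median of -0.23. The edgeR fit with the filter and TMM scaling called 0 at either stage, as did limma, while 4 of 6 and 3 of 7 had an unadjusted p under 0.05. At 2 weeks 3 were called higher by edgeR without the filter, 1 with the GC offset and 1 by DESeq2, and at E17.5 DESeq2 called 3 lower.

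Of the B lymphocyte markers 1 of 4 had an estimate above 0 at 2 weeks and 0 of 5 at E17.5, with medians of -0.32 and -0.52, and their sums overlapped between genotypes at both stages. The T and NK markers had medians of 0.37 (4 of 4 above 0) and -0.68 (1 of 3), with 1 gene at 3 reads or fewer over all E17.5 libraries together. The Kupffer cell and macrophage markers, of the cells best known for Ifi200 expression, had medians of 0.21 (8 of 11 above 0) and 0.09 (10 of 11), with 0 called by edgeR, 2 and 3 under an unadjusted p of 0.05 and 1 called by DESeq2 at E17.5, and summed to 555 to 720 RPKM in 2-week-old Stab1-/- against 419 to 593 in wildtype. Among the endothelial markers Kdr fell by 0.43 ± 0.10 at 2 weeks (adjusted p = 0.0476), a call lost with median-of-ratios normalization and with limma, and 1 of 6 estimates was above 0 with a median of -0.23. At E17.5 4 of the 6 were above 0 with a median of 0.18, Kdr had 0.28 ± 0.09 (adjusted p = 0.266), and 0 were called by edgeR, DESeq2 or limma, with 3 at an unadjusted p under 0.05 in edgeR. The erythroid list had 0 called by edgeR or DESeq2 and 0 at an unadjusted p under 0.05. The liver parenchyma list had 0 called by edgeR, with medians of -0.43 and -0.04, 3 and 1 at an unadjusted p under 0.05, and 2 called lower by DESeq2 at 2 weeks.

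Next to the cluster on chromosome 1, the 10 nearest tested genes on each side of Ifi202b pointed both ways. At 2 weeks 11 of 20 estimates were above 0 (5 with the GC offset) and 2 genes fell, the phosphatase gene Dusp23 by 0.91 ± 0.16 and the actin-binding Tagln2 by 0.53 ± 0.10 (adjusted p = 0.0124 and 0.0215), where 1.74% of all genes tested were called lower. At an unadjusted p under 0.05 in edgeR there were 7 of the 20, where 23.4% of all genes tested were. At E17.5 7 of 20 were above 0 and 0 were called by edgeR or limma and 2 by DESeq2. There 11 of 20 had an unadjusted p under 0.05 in edgeR, where 12.9% of all genes tested had.

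Few genes shared the pattern of Ifi202b, measured as the gap between the lowest Stab1-/- and the highest wildtype library in log2(RPKM + 0.1), taking the smaller gap of both stages. It was 4.66 for Ifi202b, and 46 of 12353 genes had a gap above 0 at both stages. The next were 9130409I23Rik (1.42), on chromosome 1, Gm3002 (1.15), Scara5 (0.77) and Acox2 (0.47), on chromosome 14, which also holds Stab1, and Cyp2c67 (0.50), on chromosome 19. No other Ifi200 gene was among them, but only genes tested at both stages were ranked. That left out Mnda, Pydc3, Pydc4 and BC094916. The large gap of Ifi202b was fixed by the choice of the family on it.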

How the data were processed

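Liver RNA of 15 libraries was sequenced at BGI with Illumina protocols. The authors deposited counts of reads with 1 mapped place, as integers per gene and not normalized, and a dash was read as 0. The deposited RPKM values are those counts divided by gene length and by the reads counted on genes per library, which a recalculation gave within 5.12e-13 percent. The deposited Coverage is a percent of each gene model. The aligner, the genome build and the use of strand are not given in the sources used here.

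For each symbol the row with most reads was kept. Counts were tested over the whole table with edgeR 4.0.16 (R 4.3.3), using the quasi-likelihood test, TMM scaling, filterByExpr, and Benjamini-Hochberg adjustment, two-sided, with the threshold at 0.05. The filter asked for about 10 reads, scaled to depth, in as many libraries as the smallest group held, and 15 in total. Each comparison was fitted on its own groups, and the interaction on all 15 libraries. A gene is called where its adjusted p is under 0.05. Lists are described by counts and medians. GC content came from GENCODE vM21 transcripts, the promoter windows from RefSeq, and gene order from the reference annotation.

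The members, lists and tests were chosen with earlier results of these data known. The study's methods count the libraries of a group as mice, and whether mice shared a litter is not given in the sources used here. The fits were tested on simulated data. DESeq2 1.42.0, limma 3.58.1 on log2(RPKM + 0.1) and log2(RPKM + 1), other scaling, no filter, GC offsets, the replicate number as a block and leaving out each library were tried. The named genes are the members, the list genes called, at most 4 a list, the 5 genes most like Ifi202b and the called among its 20 nearest tested genes.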

Additional observations from a re-analysis of the deposited data

Results flagged for a closer look

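One value of the 8 genes stood far from the other libraries of its group. Aim2 in 2-week-old wildtype replicate 1 was at 3.42 RPKM, where the nearest of the other 3 libraries was at 2.58, a gap of 0.853 of the group's range against Dixon's critical value of 0.829. Chance flags about 1 in 20 such groups, and 22 groups of 4 were examined. Without this library the 2-week difference of Aim2 was -0.86 on the log2 scale (edgeR adjusted p = 0.0364).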

How the results depend on the processing

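Of the log2 fold changes of the 8 genes under the alternatives other than leaving out a library, 253 kept their direction where called and their side of the threshold, 13 came to pass it, 6 no longer passed and 0 called values turned.

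At 2 weeks 2 neighbours were called, and 1 with either limma fit, with GC offsets, and with GC offsets and the replicate block together, Ifi203 having been lost each time (adjusted p 0.0516 to 0.672). Over leaving out each library the number was 0 to 2. Over all genes 340 were called, 887 with DESeq2, 219 with limma on log2(RPKM + 0.1), 1181 with the replicate block, 706 with the block and GC offsets, and 116 to 648 without 1 library. With the replicate block Ifi205 passed as well (1.06, adjusted p = 0.0364).

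At E17.5 the 1 call, Pyhin1, was lost with the replicate block (0 called, adjusted p = 0.130) and with the block and GC offsets (0 called, adjusted p = 0.0607), and 0 to 1 was called without 1 library. Over all genes 49 were called, 219 with DESeq2, 23 with the block, 30 with the block and GC offsets, and 27 to 46 without 1 library. The cause of these differences was not tested.

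For the interaction 0 neighbours were called, 1 with DESeq2 (Pyhin1), 1 with GC offsets (Aim2), 3 with the replicate block (Ifi204, Ifi205 and Pyhin1), 2 with the block and GC offsets (Aim2 and Pyhin1), and 0 to 1 without 1 library. Over all genes 251 were called, 1066 with DESeq2, 440 with limma on log2(RPKM + 1), 591 with the block, 458 with the block and GC offsets, and 30 to 684 without 1 library.

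Whether the replicate numbers pair the samples is not given in the sources used here. Same-numbered libraries correlated in their deviations from the group means by 0.02 to 0.20 at 2 weeks and -0.18 to 0.00 at E17.5. Different-numbered libraries correlated by -0.26 to 0.28 at 2 weeks and -0.10 to 0.26 at E17.5. These overlapping ranges do not settle a pairing, and the block is given as an alternative in this section only. At 2 weeks it called 5 interferon-induced genes in place of 2, 3 granulocyte markers and 1 interferon signalling gene higher and 2 liver parenchyma markers lower, in place of 0 each.

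In the stage comparison of wildtype, limma on log2(RPKM + 1) called 4 neighbours in place of 2, adding lower Aim2 and Pyhin1, and limma on log2(RPKM + 0.1) 3. RPKM moved the median of all genes there from -0.01 to -0.37, against which Aim2 stood at -0.68. GC offsets, centred per library after uncentred ones had moved that median, added Ifi204 (0.47, adjusted p = 0.0212). The 6 calls in Stab1-/- were 5 to 7 without 1 library, Ifi205 having fallen under the filter where 5.

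The split of all calls was 119 higher and 221 lower at 2 weeks, 429 and 458 with DESeq2, 120 and 99 with limma on log2(RPKM + 0.1), and 642 and 539 with the block. At E17.5 it was 26 and 23, and 19 and 46 with that limma fit.

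The limit for Ifi202b, with 3 reads allowed over the wildtype group in place of each library, was at least 129.7-fold at 2 weeks and at least 102.4-fold at E17.5. Each member had 1 row, so summing rows changed nothing. Reads under 40 per library, as for Ifi205 and Mnda, limit the precision. The called genes Aim2 at 2 weeks (30 to 47 reads in Stab1-/-) and Pyhin1 at E17.5 (15 to 39) were similarly low. Depth could not show Ifi202b under 3 reads.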
